A study of Mus musculus with 6 samples.

Results

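The 7 genes described here are 4 angiopoietin-like genes (Angptl2, Angptl4, Angptl6 and Angptl8), the lipase genes Lpl and Lipc, and Gpihbp1, which encodes the anchor of lipoprotein lipase. They were taken by symbol from the 54532 genes of the count table, where each symbol occurs once, and all 7 passed the low-count filter that left 13134 genes for testing. The counts come from bulk RNA sequencing of the ischemic lobe of mouse liver from mice with 1 h of warm ischemia followed by 12 h of reperfusion. C57BL/6 mice whose hepatocytes lack interferon regulatory factor 8 gave 3 libraries (IRF8-cKO-71, IRF8-cKO-88, IRF8-cKO-106), and wild-type C57BL/6 mice gave the other 3 (WT-14, WT-44, WT-77). Both groups underwent the same injury. The labels name neither the Cre driver nor the age, sex or relation of the mice, nor do they state whether each library is its own animal. Uninjured liver was not part of the design, so all levels are those of injured tissue. The p-values reflect only how far these libraries spread, which may be technical.

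Triglyceride in circulating lipoproteins is broken down at the capillary wall by lipoprotein lipase, the product of Lpl, which is held there by GPIHBP1. Angiopoietin-like proteins are secreted regulators of this step: ANGPTL4 is a fasting-induced inhibitor of lipoprotein lipase, and ANGPTL8 is made by liver and fat after feeding and directs lipase activity between tissues. Hepatic lipase, the product of Lipc, is made by hepatocytes and acts on lipoprotein remnants and high-density lipoprotein, whereas the adult liver itself makes little lipoprotein lipase.

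Library totals ran from 16385964 to 16805830 counts in IRF8-cKO and from 14758237 to 16010064 counts in WT. The targeted gene Irf8 stood at 5.67 CPM (counts scaled to sequencing depth, with library totals adjusted by edgeR's TMM factors) in IRF8-cKO-71, 6.71 in IRF8-cKO-88 and 4.16 in IRF8-cKO-106, against 9.30 CPM in WT-14, 9.48 in WT-44 and 10.3 in WT-77. That difference missed the threshold in edgeR over all genes tested (log2 fold change -0.81, adjusted p = 0.174). Of the 13134 genes tested, 1.39% were called at an adjusted p under 0.05, 0.449% higher and 0.937% lower in IRF8-cKO. Without WT-77 edgeR called 0 genes (1988 at an unadjusted p under 0.05), without WT-44 it called 1, without IRF8-cKO-106 it called 20 and without IRF8-cKO-88 it called 1205.

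Of the 7 genes, 1 passed the test, Angptl4, and it was lower in IRF8-cKO, where 0.937% of all genes tested were called lower. Angptl8 and Lipc were also lower in every IRF8-cKO library than in every WT library, and Lpl was higher in every IRF8-cKO library, but these 3 genes did not pass over all genes tested. The values of Angptl2, Angptl6 and Gpihbp1 overlapped between the groups. The CPM of the groups thus did not overlap for 4 of 7 genes, 1 higher and 3 lower, and the same held for 28.9% of all genes tested, 14.4% higher and 14.5% lower. Together the 7 genes took 0.0442% to 0.0837% of all counts in IRF8-cKO libraries and 0.142% to 0.222% in WT libraries. Angptl4 made up 79.2% to 81.9% of these counts in IRF8-cKO and 85.8% to 90.8% in WT, so the sum mostly follows that gene. In bulk tissue, fewer cells of a type and less RNA per cell cannot be told apart.

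**Figure D1:**
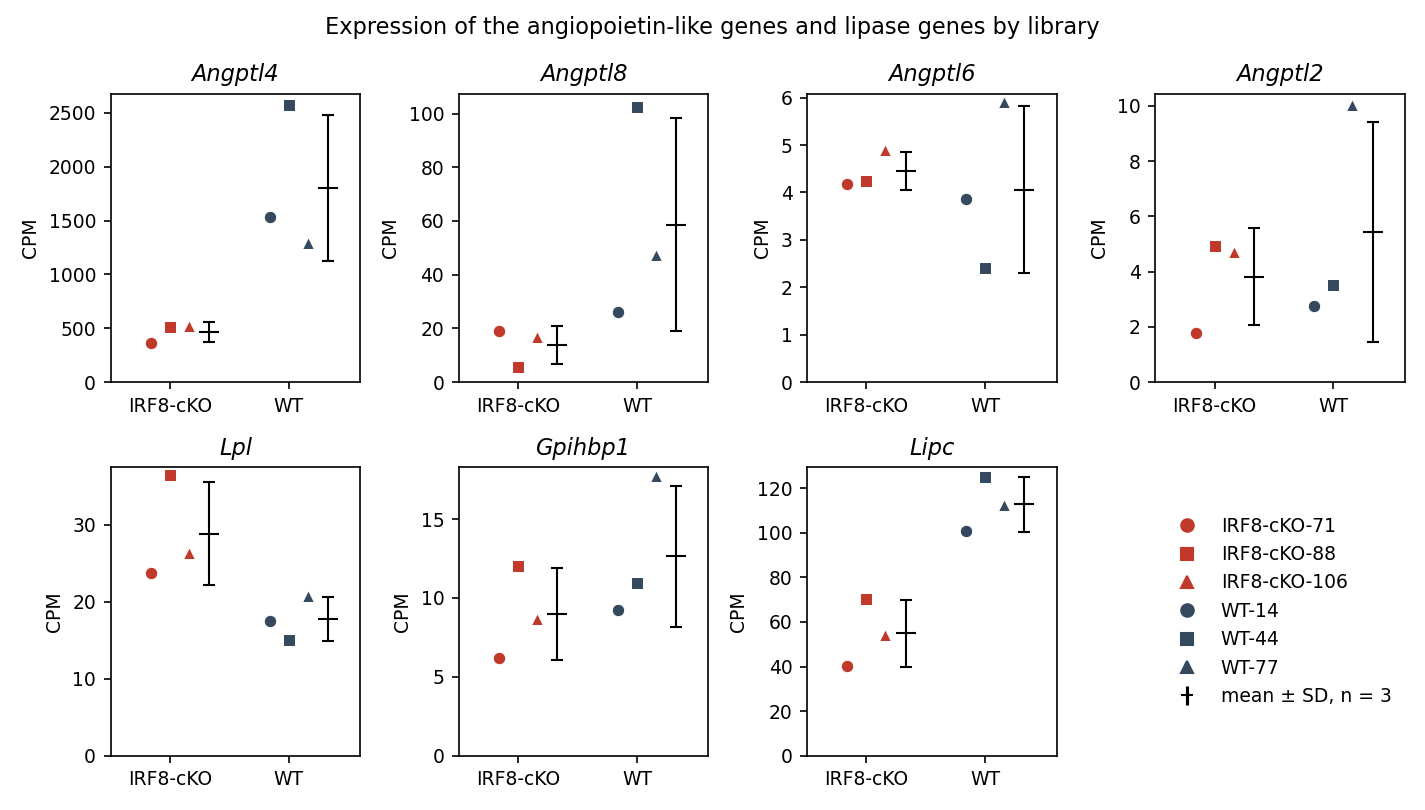
CPM of each gene (linear axes from 0) in the 3 IRF8-cKO and the 3 WT libraries, 1 symbol per library, with the mean and SD beside each group. Angptl4, Angptl8 and Lipc lie lower in every IRF8-cKO library than in every WT library, Lpl lies higher, and the other genes overlap.

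Angptl4 (ENSMUSG00000002289, chromosome 17, 33773750 to 33781575, minus strand, mm10) was by far the most abundant of the 7 genes. It stood at 362 CPM in IRF8-cKO-71, 515 in IRF8-cKO-88 and 521 in IRF8-cKO-106, against 1536 CPM in WT-14, 2569 in WT-44 and 1291 in WT-77. The 3 IRF8-cKO libraries lay close together, and the lowest WT library was above the highest of them. The means were 466 ± 89.9 CPM in IRF8-cKO and 1799 ± 678 CPM in WT (SD, n = 3 each), a 3.86-fold difference. The log2 fold change of -1.95 (SE 0.37, 95% interval -2.78 to -1.12) passed in edgeR's quasi-likelihood test with an adjusted p of 0.0446, and 2.73% of tested genes had a lower log2 fold change. With the raw counts between 5882 and 29794, counting error was at most 1.30% of the value, far below the spread between libraries.

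The size of the Angptl4 difference depended little on the libraries or the processing, but its call did. The log2 fold change stayed between -2.15 and -1.61 when each library was left out in turn. The adjusted p was 0.0255 without IRF8-cKO-88, and Angptl4 was no longer called without IRF8-cKO-71 (0.0638), IRF8-cKO-106 (0.0823), WT-14 (0.0557), WT-44 (0.176) and WT-77 (0.169), all in edgeR. Over all 17 alternatives the adjusted p ran from 1.11e-05 to 0.176. The deposited length of Angptl4 is 3286 bases, against 3541 exon bases in GENCODE M21. By RPKM (CPM per kilobase), Angptl4 ranked 293 in IRF8-cKO and 105 in WT among the 13134 tested genes.

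Angptl8 (ENSMUSG00000047822, chromosome 9, 21835510 to 21837347, plus strand) encodes a short family member that lacks the fibrinogen-like domain of the others. It stood at 19.0 CPM in IRF8-cKO-71, 5.61 in IRF8-cKO-88 and 16.7 in IRF8-cKO-106, against 26.0 CPM in WT-14, 103 in WT-44 and 47.3 in WT-77. The groups did not overlap, but the gap between IRF8-cKO-71 and WT-14 was small beside the spread within each group. The means were 13.8 ± 7.16 CPM in IRF8-cKO and 58.6 ± 39.6 CPM in WT (SD, n = 3 each). Angptl8 had a log2 fold change of -2.09 (SE 0.58, 95% interval -3.40 to -0.77) and did not pass in edgeR (adjusted p = 0.0910). Without WT-44, its highest library, the log2 fold change was -1.42. In DESeq2, which called 11.3% of the genes to which it gave an adjusted p, the same difference passed (adjusted p = 0.00378), and over 17 alternatives the adjusted p ran from 3.43e-07 to 0.289.

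Angptl8 lies within the span of Dock6 on the opposite strand and shares 0 exon bases with it in GENCODE M21. Dock6 had 122 reads in IRF8-cKO-71, 54 in IRF8-cKO-88 and 85 in IRF8-cKO-106 and 49 reads in WT-14, 66 in WT-44 and 99 in WT-77. Angptl8 itself had 308, 91 and 362 reads in the IRF8-cKO libraries and 424, 1190 and 713 reads in the WT libraries. Angptl8 is also the shortest of the 7 genes at 865 bases, and log2 fold changes were related to gene length in these libraries (Spearman 0.196 across genes, which are not independent replicates). The 460 tested genes of 0.8 to 1.25 times its length had a median log2 fold change of -0.46, against 0.03 for all genes tested. With a correction for gene length the log2 fold change of Angptl8 was -1.66 (adjusted p = 0.121 in edgeR).

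Lipc (ENSMUSG00000032207, chromosome 9, 70798128 to 70952226, minus strand), the hepatic lipase gene, was lower by a factor of 2.06. It stood at 40.1 CPM in IRF8-cKO-71, 70.4 in IRF8-cKO-88 and 53.9 in IRF8-cKO-106, against 101 CPM in WT-14, 125 in WT-44 and 113 in WT-77. All 3 WT libraries were above all 3 IRF8-cKO libraries, and the WT libraries varied little among themselves. The means were 54.8 ± 15.1 CPM in IRF8-cKO and 113 ± 12.3 CPM in WT (SD, n = 3 each). Its log2 fold change of -1.04 (SE 0.29, 95% interval -1.68 to -0.40) did not pass in edgeR (adjusted p = 0.0878), and it passed without IRF8-cKO-88 (-1.26, adjusted p = 0.0370) and in DESeq2 (adjusted p = 0.0193). Over 17 alternatives the adjusted p of Lipc ran from 0.0193 to 0.279.

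The start regions of Angptl8 and Lipc are shown because both genes are made by hepatocytes and both were lower in IRF8-cKO. RefSeq promoter windows (GRCm38.p6), from 250 bases before to 50 bases after a start site, matched 4 of the 7 genes. Angptl4, Lpl and Gpihbp1 had no window, so nothing below on motifs covers them. The windows below run 5′ to 3′ on the strand of the gene, at chr9:21835260-21835559 on the plus strand for Angptl8 and at chr9:70952172-70952471 on the minus strand for Lipc, whose table entry also holds a second start.
Angptl8: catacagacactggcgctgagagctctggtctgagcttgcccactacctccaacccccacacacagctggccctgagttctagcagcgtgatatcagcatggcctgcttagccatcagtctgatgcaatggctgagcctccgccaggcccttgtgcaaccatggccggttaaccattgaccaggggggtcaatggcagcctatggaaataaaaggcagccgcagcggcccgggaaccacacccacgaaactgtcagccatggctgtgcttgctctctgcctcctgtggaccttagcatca
Lipc: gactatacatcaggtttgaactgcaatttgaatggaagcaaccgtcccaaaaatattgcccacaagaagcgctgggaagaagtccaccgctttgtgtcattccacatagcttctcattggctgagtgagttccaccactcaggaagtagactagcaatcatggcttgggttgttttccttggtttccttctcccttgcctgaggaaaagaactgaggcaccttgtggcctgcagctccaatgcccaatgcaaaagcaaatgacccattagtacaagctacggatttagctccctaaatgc
Capitals would mark a match, and none is present: on either strand these windows, and those of Angptl2, Angptl6 and the second Lipc start, hold no hypoxia response element (ACGTG), E-box (CACGTG, which contains that element), PPAR-RXR repeat (AGGTCA, any 1 base, AGGTCA), glucocorticoid element (AGAACA, any 3 bases, TGTTCT) or IRF element (GAAA, any 2 bases, GAAA). Of the 32851 windows in the table, 19.6% hold the hypoxia response element, 7.15% the E-box, 0.0396% the PPAR-RXR repeat, 0.00913% the glucocorticoid element and 3.44% the IRF element. Only the forms given in brackets were searched, and other forms of these elements were not looked for. The absence says only that these letters are not in these windows.

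Lpl (ENSMUSG00000015568, chromosome 8, 68880491 to 68907448, plus strand) went the other way. It stood at 23.8 CPM in IRF8-cKO-71, 36.4 in IRF8-cKO-88 and 26.3 in IRF8-cKO-106, against 17.4 CPM in WT-14, 15 in WT-44 and 20.8 in WT-77. Each IRF8-cKO library was above each WT library, with the smallest gap between IRF8-cKO-71 and WT-77. The means were 28.8 ± 6.69 CPM in IRF8-cKO and 17.7 ± 2.90 CPM in WT (SD, n = 3 each). Its log2 fold change of 0.70 (SE 0.28, 95% interval 0.08 to 1.31) did not pass in edgeR (adjusted p = 0.167) or in DESeq2 (adjusted p = 0.161). Lpl is the longest of the 7 genes at 10478 bases; the 1369 tested genes of like length had a median log2 fold change of 0.20, and with the length correction Lpl stood at 0.55 (adjusted p = 0.222 in edgeR).

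Gpihbp1 (ENSMUSG00000022579, chromosome 15, 75596628 to 75599481, plus strand), an endothelial gene, did not follow Lpl. It stood at 6.22 CPM in IRF8-cKO-71, 12.0 in IRF8-cKO-88 and 8.65 in IRF8-cKO-106, against 9.24 CPM in WT-14, 10.9 in WT-44 and 17.7 in WT-77. IRF8-cKO-88 was above both WT-14 and WT-44, so the groups overlapped. The means were 8.96 ± 2.91 CPM in IRF8-cKO and 12.6 ± 4.48 CPM in WT (SD, n = 3 each). Gpihbp1 had a log2 fold change of -0.50 (SE 0.37, 95% interval -1.32 to 0.33, adjusted p = 0.430 in edgeR), an interval that holds 0.

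Angptl6, which encodes a liver-derived growth factor, and Angptl2, which encodes a secreted protein linked to inflammation, were the 2 genes with the fewest reads. Angptl6 (ENSMUSG00000038742, chromosome 9, 20873808 to 20879727, minus strand) stood at 4.19 CPM in IRF8-cKO-71, 4.25 in IRF8-cKO-88 and 4.90 in IRF8-cKO-106, against 3.86 CPM in WT-14, 2.41 in WT-44 and 5.91 in WT-77, with the IRF8-cKO values inside the WT range. It averaged 4.45 ± 0.397 CPM in IRF8-cKO and 4.06 ± 1.75 CPM in WT (SD, n = 3 each). Its log2 fold change was 0.13 (SE 0.41, 95% interval -0.79 to 1.05, adjusted p = 0.872 in edgeR), and it was -0.14 without WT-44. It shares 265 exon bases, 16.8% of its own, with A230050P20Rik on the opposite strand, which had 121 to 438 reads in IRF8-cKO and 111 to 181 reads in WT, and with the strand setting of the counting not given, reads there cannot be told apart.

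Angptl2 (ENSMUSG00000004105, chromosome 2, 33216069 to 33247717, plus strand) stood at 1.79 CPM in IRF8-cKO-71, 4.93 in IRF8-cKO-88 and 4.72 in IRF8-cKO-106, against 2.75 CPM in WT-14, 3.53 in WT-44 and 10.02 in WT-77. WT-77 stood far above the other 5 libraries, which overlapped. The means were 3.81 ± 1.76 CPM in IRF8-cKO and 5.44 ± 3.99 CPM in WT (SD, n = 3 each). Its log2 fold change was -0.51 (SE 0.57, 95% interval -1.78 to 0.76, adjusted p = 0.611 in edgeR), and without WT-77 it was 0.28. Angptl2 lies within the span of Ralgps1 on the opposite strand, with 0 shared exon bases, and Ralgps1 had 17 to 80 reads in IRF8-cKO and 10 to 19 reads in WT. Counting error at the lowest library was 18.6% for Angptl2 and 18.9% for Angptl6. The CV between libraries was 46.1% in IRF8-cKO and 73.4% in WT for Angptl2, and 8.93% in IRF8-cKO and 43.2% in WT for Angptl6.

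Exact two-sided permutation tests of log2 CPM over the 6 libraries gave p = 0.1 for Angptl4, Angptl8, Lipc and Lpl, the smallest value that 3 against 3 libraries allow. The same exact test gave p = 0.4 for Gpihbp1, 0.6 for Angptl2 and 0.7 for Angptl6.

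**Figure D2:**
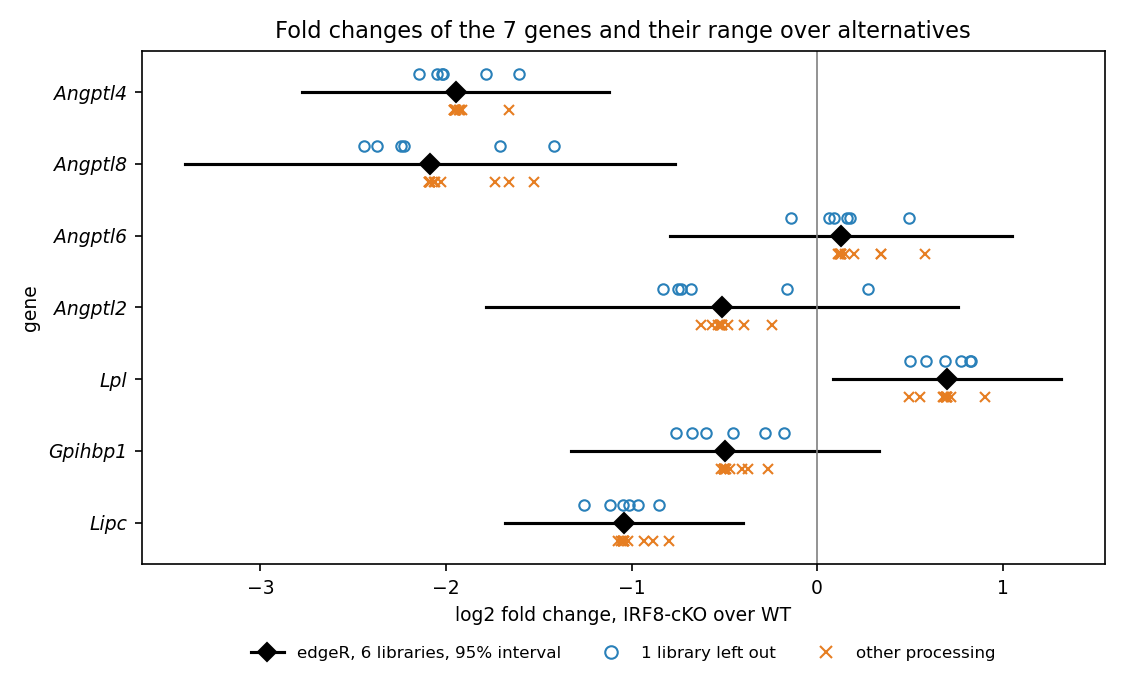
Log2 fold change of IRF8-cKO over WT for each gene on all 6 libraries in edgeR (diamond, with its 95% interval), with 1 library left out (circles) and under other processing (crosses). Angptl4, Angptl8 and Lipc stay below 0 and Lpl above 0 under all alternatives drawn, while Angptl2 and Angptl6 cross 0.

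Set per length as RPKM (CPM per kilobase of the deposited gene length), the genes fell into an abundant and a scarce class in both groups. Angptl4 led at 142 ± 27.4 RPKM in IRF8-cKO and 547 ± 206 RPKM in WT (SD, n = 3 each). Lipc followed in IRF8-cKO at 25.5 ± 7.05 RPKM, and came after Angptl8 in WT at 52.5 ± 5.72 RPKM. Angptl8 had 15.9 ± 8.28 RPKM in IRF8-cKO and 67.8 ± 45.7 RPKM in WT, and within each group its range overlapped that of Lipc, so their order is not settled. The scarce class had mean levels from 0.606 RPKM for Angptl2 to 3.51 RPKM for Gpihbp1 in IRF8-cKO, and from 0.865 RPKM for Angptl2 to 4.95 RPKM for Gpihbp1 in WT. Lpl stood at 2.75 ± 0.638 RPKM in IRF8-cKO, where it overlapped Angptl6 and Gpihbp1, and at 1.69 ± 0.276 RPKM in WT, where it overlapped Angptl6 and Angptl2.

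A ratio of genes within a library does not depend on how libraries are scaled. The RPKM of Angptl4 was 48.6 times that of Lpl in IRF8-cKO-71, 45.1 times in IRF8-cKO-88 and 63.2 times in IRF8-cKO-106, against 281 times in WT-14, 546 times in WT-44 and 198 times in WT-77. The lowest WT ratio was thus above the highest IRF8-cKO ratio by more than the whole IRF8-cKO range. The RPKM of Lipc was 8.23, 9.43 and 10 times that of Lpl in the same 3 IRF8-cKO libraries, against 28.1, 40.7 and 26.4 times in the WT libraries, again without overlap. The RPKM of Gpihbp1 was 1.07, 1.35 and 1.35 times that of Lpl in IRF8-cKO, against 2.17, 2.99 and 3.50 times in WT. Angptl4 over Angptl8 showed no such separation, at 5.03, 24.2 and 8.18 in IRF8-cKO and 15.6, 6.59 and 7.18 in WT. Angptl4 and Lipc were lower and Lpl was higher in every IRF8-cKO library, so their ratios to Lpl had to separate the groups. That separation adds no evidence beyond the single genes. Genes of like length had median log2 fold changes of 0.20 for Lpl, 0.05 for Angptl4 and -0.10 for Lipc, a trend that these ratios do not remove. All the ratios were chosen with the values of the single genes known, and they carry no test.

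**Figure D3:**
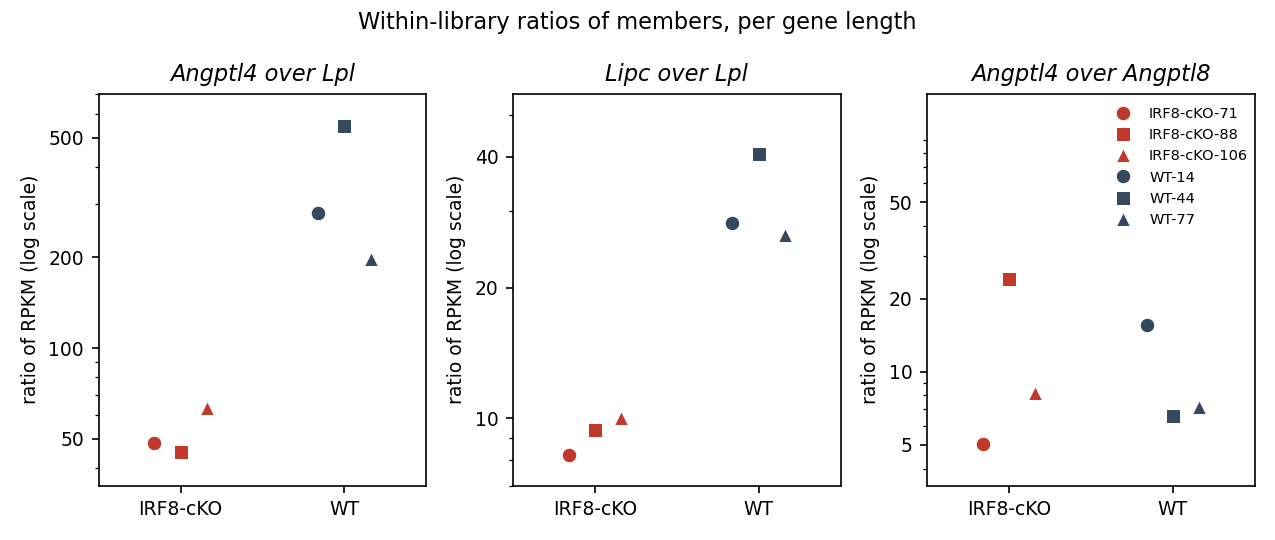
Ratio of RPKM between gene pairs in each of the 3 IRF8-cKO and the 3 WT libraries, on log axes. Angptl4 over Lpl and Lipc over Lpl are lower in every IRF8-cKO library than in every WT library, and Angptl4 over Angptl8 overlaps.

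Over the 6 libraries Angptl4 varied most closely with Lipc among the 7 genes (Pearson r 0.94, Spearman rho 0.89). Lpl ran opposite to Angptl8 (r -0.92, rho -0.94) and to Angptl4 (r -0.82, rho -0.83), and showed no such relation to Gpihbp1 (r -0.04, rho -0.09). Gpihbp1 varied with Angptl2 (r 0.91, rho 0.83). These values describe 6 libraries that fall into 2 groups and share their scaling factors, and they carry no test.

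The genes whose log2 CPM was most like that of each member were ranked by Pearson r among 10351 protein-coding genes. For Angptl4 they included Il18 (r 0.991) and Cxcr4 (0.991), with 329 genes above 0.9. For Lpl they included the lipid droplet gene Plin5 (0.992) and Atl2 (0.992), with 93 genes above 0.9. Lipc was matched by 624 genes above 0.9, led by Hsd3b5 (0.997), the chemokine gene Cxcl2 (0.996) and the neutrophil granule gene Ngp (0.995). Angptl8 was followed by Rnf8 (0.998), Capns1 (0.993) and Myct1 (0.988), and Gpihbp1 by Arl13b (0.997), Cntrl (0.991) and Cyp2a4 (0.982). The nearest to Angptl2 were Nhlrc2 (0.999), Wnt4 (0.983) and Ulk1 (0.977), and to Angptl6 Ctdspl (0.983), Vezf1 (0.981) and Nab1 (0.970). With 6 libraries, values this high occur for many genes, as these counts show.

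Plin5, which coats lipid droplets of fat-burning cells, stood at 77.7 CPM in IRF8-cKO-71, 130 in IRF8-cKO-88 and 80.4 in IRF8-cKO-106, against 46.1 CPM in WT-14, 39.7 in WT-44 and 55.1 in WT-77 (log2 fold change 1.03, adjusted p = 0.0910 in edgeR, not past the threshold). It is shown because it was the gene most like Lpl.

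The partners of plasma lipolysis, from lipase maturation to apolipoprotein cofactors and cell-surface heparan sulfate carriers, were mixed. Of 18 genes tested, 1 was higher, 1 lower and 16 did not pass in edgeR, with a median log2 fold change of -0.24 against 0.03 for all genes. At an unadjusted p under 0.05 there were 5 of 18, against 24.1% of all genes tested, and DESeq2 called 1 higher and 3 lower, against 4.86% and 6.42% of all genes. Sel1l, a part of the endoplasmic reticulum machinery that lipoprotein lipase needs to leave the cell in mice, rose to 295 CPM in IRF8-cKO-71, 328 in IRF8-cKO-88 and 94.6 in IRF8-cKO-106, against 48.5 CPM in WT-14, 50.4 in WT-44 and 49.8 in WT-77 (log2 fold change 2.27, SE 0.43, adjusted p = 0.0446 in edgeR). IRF8-cKO-106 stood well below the other 2 IRF8-cKO libraries, and all 3 were above the narrow WT range. Sdc4, a heparan sulfate proteoglycan gene, fell to 346, 446 and 331 CPM in the same IRF8-cKO libraries, against 887, 1415 and 1222 CPM in the WT libraries (log2 fold change -1.65, SE 0.32, adjusted p = 0.0446). Both calls were lost in edgeR without IRF8-cKO-71, WT-14, WT-44 or WT-77 (adjusted p 0.0506 to 0.201), and that of Sdc4 also without IRF8-cKO-106 (0.103).

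Receptors that take up lipoprotein remnants and fatty acids gave 0 calls among 7 genes in edgeR and limma-voom, with 2 at an unadjusted p under 0.05 (24.1% of all genes) and 2 called higher by DESeq2 (4.86% of all genes). The median was -0.10. The 2 with the lowest p were Lrp1, a remnant receptor, at 411 CPM in IRF8-cKO and 169 CPM in WT on average (log2 fold change 1.28, adjusted p = 0.0796), and Cd36, a fatty acid carrier, at 54.8 CPM in IRF8-cKO and 17.4 CPM in WT (1.65, adjusted p = 0.101). The Cd36 value rested largely on IRF8-cKO-71 at 102 CPM, and without that library its log2 fold change was 0.86.

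Genes of triglyceride hydrolysis inside the cell gave 0 calls among 14 genes in edgeR and limma-voom, with a median of -0.37. There were 8 at an unadjusted p under 0.05 (24.1% of all genes), and DESeq2 called 2 higher (4.86%) and 4 lower (6.42%). The carboxylesterase genes Ces1f and Ces1e, which have close copies that may share reads, had the lowest p. Ces1f averaged 94.3 CPM in IRF8-cKO and 292 CPM in WT (log2 fold change -1.63, adjusted p = 0.0551), and Ces1e 39.8 CPM in IRF8-cKO and 77.3 CPM in WT (-0.96, adjusted p = 0.0861).

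Angptl4 is a known target of PPAR-alpha, the fasting regulator of the liver. A list of 22 PPAR-alpha and fasting genes was tested, which includes Ppara itself and Ppargc1a. Of these 1 was higher, 1 lower and 20 did not pass in edgeR. Positive log2 fold changes numbered 15 and negative ones 7, with a median of 0.49. There were 10 at an unadjusted p under 0.05 (24.1% of all genes), and DESeq2 called 5 higher (4.86%) and 1 lower (6.42%). Ehhadh, a peroxisomal oxidation enzyme gene, rose to 936 CPM in IRF8-cKO-71, 2205 in IRF8-cKO-88 and 1945 in IRF8-cKO-106, against 378 CPM in WT-14, 336 in WT-44 and 519 in WT-77 (2.04, SE 0.40, adjusted p = 0.0446 in edgeR). Fabp1, a fatty acid carrier gene, fell to 760, 679 and 670 CPM in the IRF8-cKO libraries, against 2186, 3765 and 2439 CPM in the WT libraries. Its log2 fold change was -1.99 (SE 0.35, adjusted p = 0.0408 in edgeR). Fabp1 is 553 bases long, and with the gene length correction it stood at -1.48 (adjusted p = 0.0607 in edgeR). The same correction left Ehhadh at 2.09 (adjusted p = 0.0595 in edgeR). Both genes separated the groups fully and in opposite directions, and both calls were lost in edgeR without IRF8-cKO-106, WT-44 or WT-77, with that of Ehhadh also lost without WT-14 (adjusted p 0.0772 to 0.204). CPM did not overlap between the groups for 9 genes of the list on the higher side and 1 on the lower side, against 14.4% and 14.5% of all genes.

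Angptl4 is also a known target of hypoxia and of glucocorticoids. Hypoxia targets gave 0 calls among 15 genes in edgeR and limma-voom, with 5 at an unadjusted p under 0.05 (24.1% of all genes) and 4 called lower by DESeq2 (6.42% of all genes). Of the log2 fold changes 12 were negative, and the median was -0.62. CPM did not overlap between the groups for 0 genes on the higher side and 7 on the lower side, against 14.4% and 14.5% of all genes. Pfkfb3, a glycolytic regulator gene, averaged 24.6 CPM in IRF8-cKO and 71.6 CPM in WT (-1.54, adjusted p = 0.0554), and Ndrg1, a stress-response gene, 30.9 CPM in IRF8-cKO and 117 CPM in WT (-1.93, adjusted p = 0.0678), with a log2 fold change of -2.61 without IRF8-cKO-88. Glucocorticoid targets gave 0 calls among 13 genes in edgeR and limma-voom, with 4 at an unadjusted p under 0.05 (24.1% of all genes) and 4 called lower by DESeq2 (6.42% of all genes). Of their log2 fold changes 9 were negative and 4 positive, and the median was -0.66. The positive ones were those of Tsc22d3 (0.37), the receptor gene Nr3c1 (0.23), Lcn2 (0.19) and Fkbp5 (0.14). CPM did not overlap for 0 genes on the higher side (14.4% of all genes) and 4 on the lower side (14.5%). The metallothionein gene Mt2 (-1.72, adjusted p = 0.0674) and the clock gene Per1 (-1.58, adjusted p = 0.0794) had the lowest p. Mt2 stood at -1.12 with a correction for gene length and GC content.

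Angptl8 is induced with the lipogenic genes after feeding. Of 14 genes of that list 1 was higher, 0 lower and 13 did not pass in edgeR, with a median of 0.23. There were 6 at an unadjusted p under 0.05 (24.1% of all genes). CPM did not overlap for 4 genes on the higher side (14.4% of all genes) and 3 on the lower side (14.5%). DESeq2 called 3 higher (4.86%) and 2 lower (6.42%), and limma-voom called 0. Acacb, encoding an acetyl-CoA carboxylase, rose to 34.6 CPM in IRF8-cKO-71, 53.5 in IRF8-cKO-88 and 45.3 in IRF8-cKO-106, against 9.85 CPM in WT-14, 12.8 in WT-44 and 20.6 in WT-77 (1.63, SE 0.33, adjusted p = 0.0495), a call that was lost without IRF8-cKO-106, WT-14, WT-44 or WT-77 (adjusted p 0.0816 to 0.206 in edgeR). All these lists were drawn up from general knowledge with earlier results of these data known.

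**Figure D4:**
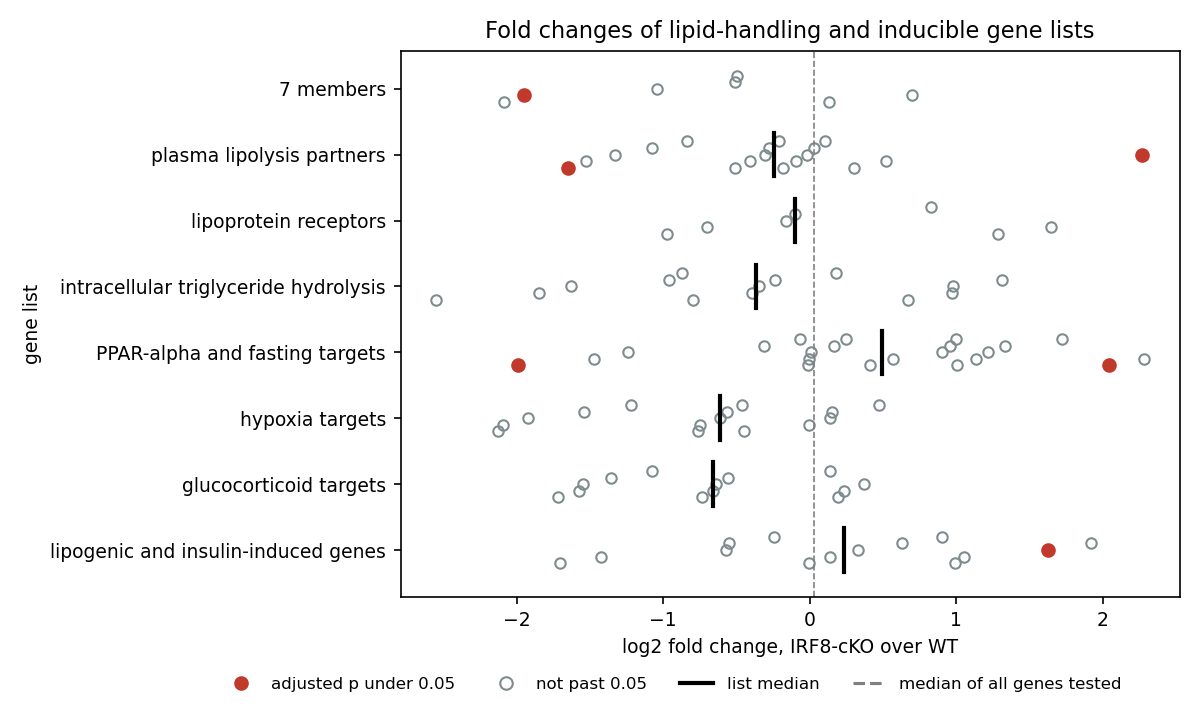
Log2 fold change of IRF8-cKO over WT for the 7 genes and each tested gene of the 7 other lists, filled where the adjusted p in edgeR was under 0.05, with the median of each of those lists as a bar and the median of all genes as a dashed line. The hypoxia and glucocorticoid medians lie at -0.62 and -0.66, that of the PPAR-alpha list at 0.49, and single lists hold at most 2 called genes.

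The 9 hepatocyte markers found in the table summed to 64066 to 79367 CPM in IRF8-cKO and 78906 to 122002 CPM in WT, where WT-14 lay just under IRF8-cKO-88. Alb led this sum, at 46858 to 58797 CPM in IRF8-cKO and 61713 to 88584 CPM in WT. The median log2 fold change of these markers was -0.51, and single markers ran from -1.05 for Ttr to 0.45 for Cps1. Neutrophil markers, which summed to 25.1 to 55.2 CPM in IRF8-cKO and 186 to 229 CPM in WT with 5 of 9 genes called lower, and recruited macrophage markers, at 30.8 to 64.2 CPM in IRF8-cKO and 84.5 to 96.1 CPM in WT, were lower in every IRF8-cKO library, as Angptl4 and Lipc were. Cholangiocyte markers were lower there too, at 148 to 257 CPM in IRF8-cKO and 462 to 944 CPM in WT. Over the 6 libraries Angptl4 had a Pearson r of 0.86 with the hepatocyte sum and 0.87 with the recruited macrophage sum. It was 0.89 with the neutrophil sum and 0.84 with the cholangiocyte sum. All these values share the split into groups. After each group was centred on its mean, r was 0.63 with the hepatocyte sum and 0.46 with the recruited macrophage sum. It was then -0.12 with the neutrophil sum and -0.02 with the cholangiocyte sum. None of these values carries a test. The part of these cell types in the Angptl4, Angptl8 and Lipc values was not tested.

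Lpl and Gpihbp1 are high in fat, muscle and the cells of vessels and in some macrophages. Of 10 adipocyte markers, the defining genes Adipoq and Lep had no read in any library, while the list sum, led by Cidec, which fatty hepatocytes also express, ran from 269 to 648 CPM in IRF8-cKO and from 226 to 385 CPM in WT. Kupffer cell markers summed to 101 to 297 CPM in IRF8-cKO and 86.3 to 108 CPM in WT. Over the 6 libraries Lpl had a Pearson r of 0.50 with the Kupffer sum, and of -0.18 after each group was centred on its mean. Neither value carries a test. Sinusoidal endothelial markers summed to 169 to 245 CPM in IRF8-cKO and 168 to 233 CPM in WT. Capillary endothelial markers summed to 107 to 127 CPM in IRF8-cKO and 125 to 166 CPM in WT, and stellate cell markers to 298 to 476 CPM in IRF8-cKO and 371 to 548 CPM in WT. Among the marker sums, Gpihbp1 and Angptl2 varied most closely with the stellate cell sum over the 6 libraries (Pearson r 0.93 and 0.95), a description with no test. The part of these cell types in the Lpl, Gpihbp1 and Angptl2 values was not tested.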

How the data were processed

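RNA was isolated with Trizol, and an NEBNext Ultra kit gave the libraries, per the labels' protocols. HISAT2 2.0.5, featureCounts 1.5.0-p3 and the mm10 build are listed in the submitters' processing notes. The deposited values are raw counts per gene, whole numbers in every library. How strand and multiply mapped reads were treated, and which annotation was counted, is not given in the sources used here. The other deposited numbers used were gene lengths in bases, per the file headers. Columns were tied to samples by title.

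Counts were scaled by TMM, filtered with filterByExpr (minimum count 10, minimum total 15) and tested two-sided by the robust quasi-likelihood F test of edgeR 4.0.16 (R 4.3.3). P-values were adjusted by Benjamini-Hochberg over the 13134 genes, and genes under 0.05 were called. A standard error is the size of a log2 fold change over the square root of F, and intervals are 95%. Correlations used log2 CPM with a prior count of 2. The procedure was tested on simulated data. Exon overlaps came from GENCODE M21, in which 6 of the 7 genes have the same start and end. Alternatives were other scalings and filters, DESeq2 1.42.0, limma-voom (limma 3.58.1), a fit that was not robust, removal of the 10 most abundant genes and each library left out in turn. Corrections for gene length and GC content (lowess span 0.5) were chosen after seeing the data. Every member was named, in each list the genes past 0.05 (at most 4) or the 2 with the lowest p, and per member the 3 genes most like it with a mean log2 CPM of at least 1. Some of these genes are not reported here. The members and lists were chosen with earlier results of these data known.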

Additional observations from a re-analysis of the deposited data

How the results depend on the processing

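No paired analysis was possible because the groups share no library number. Angptl4, Angptl8, Lipc and Gpihbp1 kept negative and Lpl a positive log2 fold change under all 17 alternatives. Leaving out each library in turn gave ranges of -2.15 to -1.61 for Angptl4, -2.44 to -1.42 for Angptl8, -1.26 to -0.85 for Lipc, 0.50 to 0.83 for Lpl, -0.76 to -0.18 for Gpihbp1, -0.83 to 0.28 for Angptl2 (turned by WT-77) and -0.14 to 0.49 for Angptl6 (turned by WT-44). It moved the count of called genes among all tested from 182 to between 0 and 1205, among the 7 genes from 1 to between 0 and 2, and among the pathway lists from 5 to between 0 and 21. The Angptl4 call was also lost with library totals only (-1.66, adjusted p = 0.0549), with the gene length correction (-1.93, 0.0533) and with the length and GC correction (-1.96, 0.0551). Angptl8 and Lipc passed in DESeq2 (-2.09 and -1.05) and with no low-count filter in edgeR (-2.06 and -1.02). Genes called over all tested, among the 7 and among the pathway lists numbered 82, 0 and 3 with library totals, 1723, 3 and 31 with no filter, 1423, 3 and 31 in DESeq2, 111, 1 and 3 in limma-voom, 77, 0 and 0 with the length correction and 73, 0 and 0 with the length and GC correction. Where 0 of the 7 were called, 3 or 4 had an unadjusted p under 0.05. In those settings the same held for between 1984 of 13645 genes tested (without WT-44) and 3249 of 13614 (without WT-14). Called genes split into 59 higher and 123 lower, against 39 and 43 with library totals, which shifted the median over all genes by 0.23 on the log2 scale. The higher and lower calls numbered 817 and 906 with no filter, 613 and 810 in DESeq2 and 23 and 88 in limma-voom. The causes were not tested. Counting error was largest for Angptl2 and Angptl6.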

Other observations

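Some genes outside the naming rule, chosen after their values were seen, bear on the same pathway. Hilpda and G0s2 encode inhibitors of adipose triglyceride lipase, the enzyme that opens triglyceride breakdown inside cells. Hilpda stood at 3.76 CPM in IRF8-cKO-71, 251 in IRF8-cKO-88 and 45.9 in IRF8-cKO-106, against 217 CPM in WT-14, 774 in WT-44 and 772 in WT-77 (log2 fold change -2.55, SE 1.16, adjusted p = 0.220 in edgeR). IRF8-cKO-88 lay above WT-14, and IRF8-cKO-71 far below every other library. G0s2 stood at 40.5, 174 and 57.2 CPM in the IRF8-cKO libraries, against 97.4, 599 and 282 CPM in the WT libraries (-1.85, SE 0.73, adjusted p = 0.174), with the same overlap.

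The lipogenic list, in which Angptl8 belongs by its feeding response, held genes that separated the groups in opposite directions without passing. Srebf1, encoding the transcription factor that insulin induces, stood at 26.4 CPM in IRF8-cKO-71, 48.5 in IRF8-cKO-88 and 83.3 in IRF8-cKO-106, against 140 CPM in WT-14, 152 in WT-44 and 133 in WT-77 (-1.42, adjusted p = 0.0861 in edgeR). Gpam, encoding an enzyme of glycerolipid synthesis, stood at 29.1, 51.1 and 91.3 CPM in the IRF8-cKO libraries, against 20.1, 6.21 and 18.9 CPM in the WT libraries (1.92, adjusted p = 0.0861).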
